A study of Mus musculus with 57 samples.

Results

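XY male and XX female mouse pups were compared at day 4 in tissue of the BNST/POA, which joins the bed nucleus of the stria terminalis to the preoptic area, on autosomal genes only. The comparison rests on 10 of the 57 Illumina MouseRef-8 arrays of the series, 5 of XY and 5 of XX pups, chosen by the age, region and sex in their labels. The XY males had received 15 ul of peanut oil under the skin on the day of birth, and so had the XX females. A further 5 day 4 arrays of XX+T females, which had received 100 ug of testosterone propionate in the same volume of oil on that day, are shown beside them. All pups were C57BL/6J with intact gonads, and each array held RNA pooled from 3 animals. A whole litter received either oil or testosterone, so XX+T and XX pups also differ by litter. The wider series adds the striatum and mice of day 60. The day 60 mice were XY and XX given the same oil at birth, and XX+T given the same testosterone. Their gonads were removed at weaning, and they carried testosterone implants as adults. The day 60 XX+T arrays of the BNST/POA enter only the fits of the comparisons with XX+T. Where the pools are compared, p-values measure the spread between pools, and each pool averages its animals.

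The BNST and the preoptic area lie in the ventral forebrain and control mating, parental care and responses to threat. Both hold cell groups that differ in size between the sexes in rodents. In males the testes release testosterone around birth, brain aromatase turns part of it into oestradiol, and steroid receptors then act on gene expression and on the survival of neurons in these nuclei. Day 4 falls inside this sensitive period. The contrast asked which transcripts outside the sex chromosomes differed while that process was under way.

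A probe was kept where its detection p, which sets its signal against the array's negative controls, was under 0.05 on at least 20 arrays. Of 13731 kept probes, 12505 lie on autosomes and represent 9244 genes. The 441 probes of X-linked and 5 of Y-linked genes were left out, and 780 probes could not be placed on a chromosome. Values are quantile-normalized log2 intensities, and a difference of XY minus XX is in log2 units. The 15 day 4 BNST/POA arrays detected between 12754 and 13845 probes. The Y-linked Eif2s3y read 8.85 to 9.94 in XY pools and 6.82 to 6.95 in XX pools, so the labels held on all 10 arrays. Tissue markers fitted the labelled region in part: Gal averaged 11.47 in these arrays against 7.67 in day 4 striatum, Dlk1 10.15 against 7.36, and the striatal Ppp1r1b 7.80 against 13.83, whereas Nkx2-1 read the same in both (8.32 in each) and Esr1 had no kept probe.

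The largest source of variation among the day 4 BNST/POA arrays was not sex. The first principal component of the autosomal probes held 61.6% of the variance and set XY pools 1 and 5, XX+T pools 1 and 3, and XX pools 2 and 4 on one side. Within the XY and XX arrays the correlation between arrays was 0.985 to 0.995 among the 4 on that side, 0.986 to 0.996 among the other 6, and 0.948 to 0.988 between the sides. Sex accounted for 0.0884% of this component over the 10 arrays. The second component held 10.2% of the variance, and sex accounted for 87.2% of it over the same arrays. The labels give nothing that the pools on either side of component 1 had in common.

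**Figure D1:**
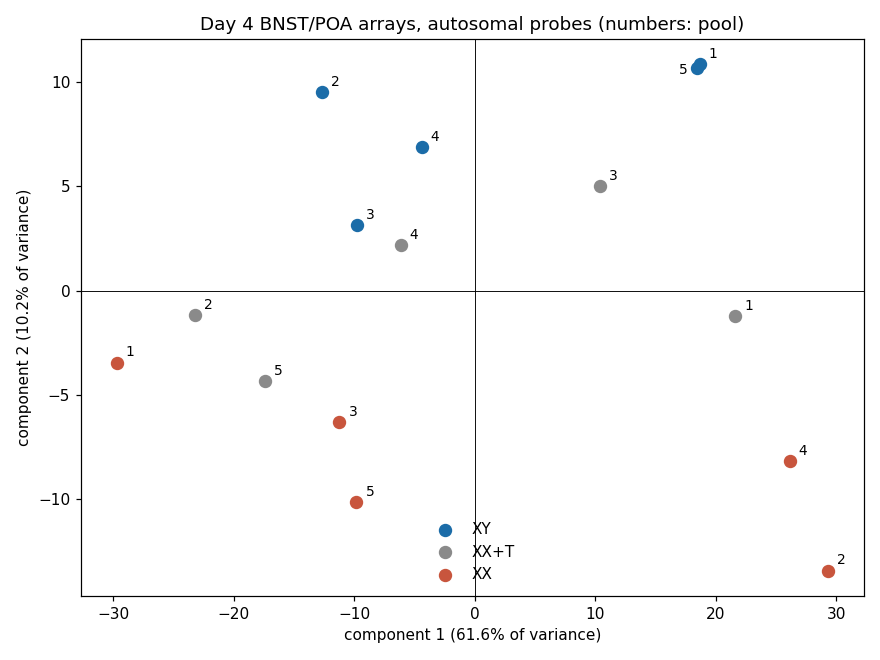
Scores of the 15 day 4 BNST/POA arrays on the first (x axis) and second (y axis) principal components of autosomal log2 intensities; each point is a pool, labelled by its number. On component 1, 2 of 5 pools of each group lie above 0, and on component 2 all XY pools lie above 0 and all XX pools below.

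Limma called 14 of the autosomal probes at a Benjamini-Hochberg adjusted p under 0.05, 7 higher and 7 lower in XY. This is 0.112% of the autosomal probes, 0.056% in each direction. The fit also held the day 60 XY and XX BNST/POA arrays, which enter every SE and adjusted p of this fit. Comparisons with XX+T, in the striatum or between regions had fits of their own groups. A fit of the 10 day 4 arrays alone called 1 autosomal probe, none of the 14. The genes that rose were the interferon-induced membrane protein Ifitm3, the transcriptional inhibitor Id1, the chromatin factor Gatad1, the ciliary gene Dpcd, the endosomal sorting subunit Vps25, the trafficking protein Yif1b, and Rex1bd. Those that fell were the adhesion molecule Alcam, the vesicle protein Syt4, the kappa opioid receptor Oprk1, the signalling subunit Pik3r3, the peroxisomal enzyme Agps, the replication subunit Pold3, and Enpp5. Fold differences ran between 1.25 and 1.81. At an unadjusted p under 0.05 the autosomal probes numbered 623 higher (4.98%) and 632 lower (5.05%), 10% in all.

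A promoter is shown for the called gene with the largest rise and the called gene with the largest fall, as the RNA levels of both differed between the sexes. Promoters of 9 of the 14 genes were searched, each 250 bases before to 50 after the gene's start (RefSeq, GRCm38.p6). The Ifitm3 window, on the minus strand at chr7:141010695-141010994, is printed with each pair of GAAA copies spaced by 2 bases, the core of the interferon-stimulated response element, in capitals. The Alcam window, on the minus strand at chr16:52453032-52453331, has its CCAAT box in capitals, which reads ATTGG on this strand.
Ifitm3: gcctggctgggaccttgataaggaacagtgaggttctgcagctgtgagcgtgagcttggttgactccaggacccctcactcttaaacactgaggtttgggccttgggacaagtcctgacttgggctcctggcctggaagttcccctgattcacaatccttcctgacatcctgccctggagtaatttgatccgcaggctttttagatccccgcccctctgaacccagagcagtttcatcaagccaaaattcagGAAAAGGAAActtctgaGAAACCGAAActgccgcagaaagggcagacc
Alcam: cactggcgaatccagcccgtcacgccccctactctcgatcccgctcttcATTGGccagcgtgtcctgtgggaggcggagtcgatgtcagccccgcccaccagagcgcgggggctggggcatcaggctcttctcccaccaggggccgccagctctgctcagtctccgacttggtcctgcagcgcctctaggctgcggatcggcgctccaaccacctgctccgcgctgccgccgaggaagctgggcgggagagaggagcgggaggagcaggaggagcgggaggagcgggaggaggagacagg
The 2 matches in Ifitm3 begin 3 and 20 bases after the start, and 3.44% of all 32851 promoter windows hold at least 1 such match on either strand. Among the 9 genes only Ifitm3 held one. The oestrogen response element (GGTCA and TGACC spaced by 3 bases) was in 0 of the 9 genes and in 0.07% of all windows, and the androgen response element (AGAACA and TGTTC spaced by 3 bases) in 0 of 9 and in 0.0487%. The GC box GGGCGG was found in 8 of 9 genes (35.7% of all windows) and the CCAAT box in 6 of 9 (37.4%), counted over 13 windows since some genes have several starts. The shares are of single windows, while a gene with several windows had more chances of a match, so the counts and shares differ in unit. These are matches of letters in a short window only.

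Ifitm3, a membrane protein induced by interferon that blocks the entry of viruses, had the largest difference of the called genes. It read 9.69, 10.003, 9.93, 9.71 and 9.88 in XY pools 1 to 5. In XX pools 1 to 5 it read 9.51, 8.67, 9.42, 8.58 and 8.75. The lowest XY pool lay above the highest XX pool, and the XX pools fell into a pair near the XY values and a group of 3 below. The difference was 0.86 (SE 0.15, adjusted p = 0.0196), a 1.81-fold rise.
Id1, a dominant-negative partner of basic helix-loop-helix factors and a target of BMP signalling, read 8.78, 8.82, 8.81, 8.73 and 8.71 in XY pools. The XX pools read 8.46, 7.94, 8.62, 8.04 and 8.10. The XY pools were nearly identical (SD 0.0458), the XX pools were spread widely (SD 0.292), and the groups did not overlap. Id1 rose by 0.54 (SE 0.10, adjusted p = 0.0437).
Gatad1 encodes a zinc finger protein that associates with chromatin. Its called probe read 9.44, 9.55, 9.50, 9.56 and 9.69 in XY and 9.07, 8.73, 9.18, 8.95 and 9.11 in XX, with no overlap. The rise was 0.54 (SE 0.09, adjusted p = 0.0173).

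Dpcd, named for its deletion in a mouse with ciliary dyskinesia, was among the brighter probes called. It read 11.89, 11.87, 11.85, 11.98 and 12.12 in XY and 11.65, 11.19, 11.54, 11.20 and 11.39 in XX. The groups did not overlap, and the rise was 0.55 (SE 0.09, adjusted p = 0.0173).
Rex1bd, whose probe carries the older name 2810428I15Rik and was matched by synonym, read 11.29, 11.36, 11.08, 11.52 and 11.50 in XY and 11.16, 10.63, 10.86, 10.70 and 10.74 in XX. Here the groups overlapped, since XX pool 1 lay above XY pool 3. The rise was 0.53 (SE 0.10, adjusted p = 0.0247).
Vps25, a subunit of the ESCRT-II complex that sorts ubiquitinated receptors into endosomes, read 10.69, 10.70, 10.41, 10.65 and 10.50 in XY and 10.27, 10.01, 10.22, 10.18 and 10.38 in XX. The gap between the groups was narrow. Vps25 rose by 0.38 (SE 0.08, adjusted p = 0.0479).
Yif1b acts in transport between the endoplasmic reticulum and the Golgi and carries a serotonin receptor to neuronal dendrites. It read 11.00, 11.11, 11.15, 11.10 and 10.98 in XY and 10.76, 10.61, 10.71, 10.60 and 10.91 in XX, without overlap. The rise of 0.35 (SE 0.07, adjusted p = 0.0408) was the smallest of the 7.

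Alcam, an immunoglobulin-family adhesion molecule of growing axons, had the largest fall of the called genes. It read 9.45, 9.19, 9.31, 9.22 and 8.99 in XY pools 1 to 5. The XX pools read 9.87, 10.02, 9.68, 9.84 and 10.10. Every XY pool lay below every XX pool, and Alcam fell by 0.67 (SE 0.12, adjusted p = 0.0173), 1.59-fold.
Syt4, a synaptotagmin found on dense-core vesicles, was the brightest of the called probes. It read 12.98, 13.13, 13.08, 13.14 and 12.84 in XY and 13.53, 13.72, 13.52, 13.48 and 13.78 in XX. The gap between the groups was wider than the range of either, and the fall was 0.57 (SE 0.11, adjusted p = 0.0274).
Oprk1, the receptor of dynorphin peptides, was the dimmest. It read 7.69, 7.76, 7.70, 7.76 and 7.72 in XY (SD 0.0307) and 8.06, 8.22, 8.01, 8.18 and 8.02 in XX (SD 0.0961). It fell by 0.37 (SE 0.07, adjusted p = 0.0479), and its probe was detected on all 10 arrays.

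Pik3r3, a regulatory subunit of phosphoinositide 3-kinase, read 11.02, 11.11, 11.40, 11.19 and 11.09 in XY and 11.32, 11.70, 11.79, 11.62 and 11.71 in XX. XX pool 1 lay below XY pool 3, so the groups overlapped. It fell by 0.47 (SE 0.09, adjusted p = 0.0479).
Agps, the peroxisomal enzyme that forms the ether bond of plasmalogens, read 9.10, 9.09, 9.18, 9.35 and 9.17 in XY and 9.41, 9.72, 9.44, 9.59 and 9.61 in XX. XY pool 4 came close to XX pool 1 without crossing it. Agps fell by 0.37 (SE 0.07, adjusted p = 0.0274).
Pold3, a subunit of DNA polymerase delta, read 9.71, 9.64, 9.86, 9.75 and 9.84 in XY and 9.98, 10.32, 10.15, 10.09 and 10.13 in XX. The groups did not overlap, and the fall was 0.38 (SE 0.07, adjusted p = 0.0473).
Enpp5, a membrane member of the nucleotide pyrophosphatase family, read 11.78, 11.86, 11.80, 11.83 and 11.54 in XY and 12.04, 12.13, 12.09, 12.03 and 12.13 in XX. XY pool 5 stood below the other XY pools, and the XX pools were close together (SD 0.045). The fall of 0.32 (SE 0.06, adjusted p = 0.0473) was the smallest called.

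**Figure D2:**
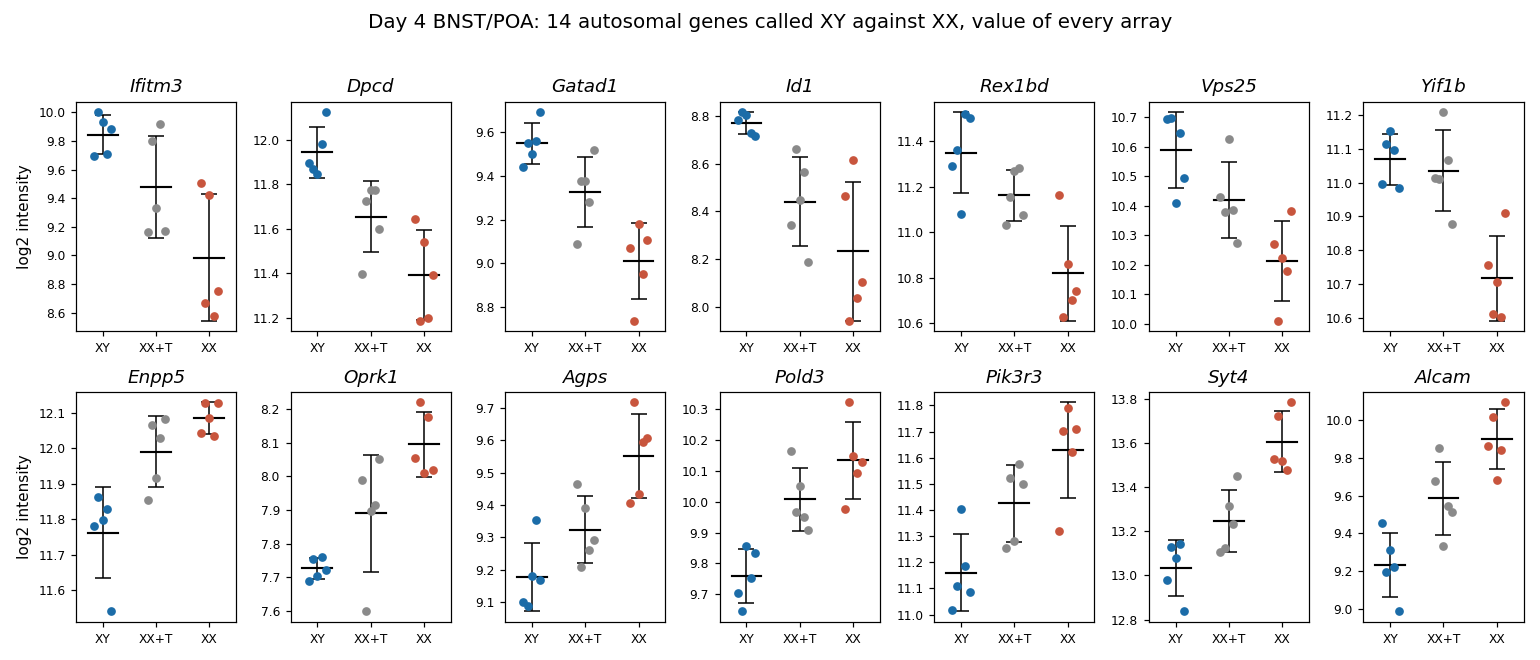
Quantile-normalized log2 intensity (y axis, scaled per gene) of the 14 called autosomal genes in every day 4 BNST/POA pool of XY, XX+T and XX pups; points are pools, bars the mean and SD of 5 pools. XY and XX pools do not overlap for 12 of the 14 genes, and Rex1bd and Pik3r3 overlap by a single XX pool.

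Groups did not overlap for 12 of the 14 called probes, as against 364 (2.91%) of all autosomal probes. All 14 were detected on all 10 arrays. Between 19 and 61 beads carried each of these probes on an array, and the error of the bead mean was 0.041 to 0.0625 log2 units, so the SD between pools exceeded it in most groups. The Oprk1 and Id1 values in XY and the Enpp5 values in XX varied less than the bead error (0.0573, 0.0553 and 0.0487).
One further called probe rose by 0.59 (SE 0.09, adjusted p = 0.00604; 9.35 in XY and 8.76 in XX). It is named 1810009N02Rik in the paper's supplement, has no chromosome in the gene table, and is not counted among the autosomal genes. Just outside the threshold lay Ccdc88a (-0.65, adjusted p = 0.0506), Selenoi (-0.35, adjusted p = 0.0526) and Mrpl43 (0.36, adjusted p = 0.0567), against Pik3r3, Vps25 and Oprk1 just inside it.

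Second probes allow a check of 5 of the called genes. The other Vps25 probe, brighter than the called one, read 11.36 in XY and 11.00 in XX, a difference of 0.36 (SE 0.08, adjusted p = 0.0594) with no overlap. A brighter Gatad1 probe differed by 0.22 (SE 0.06, adjusted p = 0.119), also without overlap, and a dim one, detected on 8 of the 10 arrays, by 0.02. The second Yif1b probe differed by 0.31 (adjusted p = 0.138) and the brighter Agps probe by -0.31 (adjusted p = 0.242), each with overlapping groups. For Dpcd the 2 other probes were far dimmer and differed by 0.21 (adjusted p = 0.247) and 0.05 (adjusted p = 0.995). All 7 of these probes had the sign of the called probe and none was called. The remaining 9 genes had a single kept probe.

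The calls rested on which arrays entered. On the 6 arrays below 0 on component 1 (XY pools 2, 3 and 4, XX pools 1, 3 and 5) the 14 genes differed by 0.256 to 0.655 in size, and on the 4 arrays above 0 by 0.383 to 1.17. The difference was larger in the 4 arrays for 14 of 14. Ifitm3 differed by 0.66 in the 6 arrays and by 1.17 in the 4, Alcam by -0.64 and -0.71. Without the 4 arrays 0 autosomal probes were called (478 at unadjusted p under 0.05). A fit of the 10 arrays alone, without day 60 arrays to estimate the spread, called 1 probe, none of the 14. The same fit with component 1 as a covariate called 1198, 605 higher and 593 lower, among them all 14. The covariate and the fit without the 4 arrays were chosen after the data were seen, and the covariate comes from the same probes that are tested. Leaving out single arrays also moved the count: 91 without XX pool 1, 34 without XY pool 3, 12 without XX pool 3, 8 without XY pool 1, 3 without XX pool 5, 2 without XY pool 4, 1 without XY pool 2, and 0 without XX pool 2, XX pool 4 or XY pool 5.

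Ranking by size instead of by p gives a partly different list. Among the 163 probes that were higher in XY with groups apart, an unadjusted p under 0.05 and detection on every XY array, the 10 genes with the largest differences were Ifitm3, Pmm1, Mdk, Dpcd, Gatad1, Id1, Pdlim4, Svbp, Otulin and Rab34. Mdk, the neurite-promoting growth factor midkine, read 11.91, 11.99, 12.16, 11.97 and 11.99 in XY and 11.87, 11.00, 11.81, 11.21 and 11.36 in XX. Its XX pool 1 nearly reached the XY pools, and the difference of 0.55 (SE 0.15, adjusted p = 0.115) did not pass. Its other probes differed by 0.45 (adjusted p = 0.159) and 0.12 (adjusted p = 0.55).
Pmm1, a phosphomannomutase, averaged 10.25 in XY and 9.69 in XX (0.56, SE 0.16, adjusted p = 0.138). Svbp, a partner of the vasohibins that remove tyrosine from tubulin, averaged 12.19 in XY and 11.72 in XX (adjusted p = 0.0713). Pdlim4, Otulin (a deubiquitinase of linear chains) and the small GTPase Rab34 differed by 0.45 to 0.47, with adjusted p between 0.0594 and 0.109. A pair of other Rab34 probes differed by 0.13 and 0.06.

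Of 155 probes lower in XY under the same conditions, the 10 largest were Chl1, Alcam, Ccdc88a, Ankrd12, Zdhhc21, Akap9, Appbp2, Zfp148, Syt4 and Mdga2. Chl1, an adhesion molecule of the L1 family that guides axons, read 9.88, 10.13, 9.75, 10.11 and 9.53 in XY and 10.69, 10.59, 10.55, 10.26 and 11.01 in XX. The groups were apart and the difference was larger than that of Alcam, yet its spread was wider (-0.74, SE 0.16, adjusted p = 0.0594). Ccdc88a, the actin-binding Akt substrate girdin, read 9.47, 9.68, 9.88, 9.59 and 9.80 in XY and 10.34, 10.35, 10.39, 10.30 and 10.31 in XX. The XX pools were almost level (SD 0.0352), and the difference of -0.65 (SE 0.13, adjusted p = 0.0506) narrowly missed the threshold.
Mdga2, which binds neuroligins at the synapse, averaged 8.82 in XY and 9.38 in XX (-0.56, adjusted p = 0.115). Its second, brighter probe differed by -0.65 (adjusted p = 0.138). Zdhhc21, a palmitoyltransferase, averaged 9.79 in XY and 10.39 in XX (-0.60, adjusted p = 0.0594), and the XY pools ranged more widely (SD 0.337 against 0.0568). The scaffold Akap9, with Ankrd12, Appbp2 and the zinc finger factor Zfp148, differed by -0.57 to -0.64, with adjusted p between 0.0594 and 0.138. A further Akap9 probe of like brightness differed by -0.56 (adjusted p = 0.172), also with groups apart, and a dim one by -0.22 (adjusted p = 0.938). Another Ankrd12 probe differed by -0.19 (adjusted p = 0.977).

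Gene groups were described by the brightest probe of each gene, beside all 9244 autosomal genes, of which 50.7% were higher in XY at any p, 5.05% higher and 5.42% lower at an unadjusted p under 0.05, with a median difference of 0.0017. The lists were chosen with earlier results of these data known, so they are no separate support for the called genes. A called gene also counts, by its brightest probe, in the figures of its own list. In whole tissue, fewer cells of a type and less RNA per cell cannot be told apart. Adhesion and guidance molecules stood lower in XY: of 26 measured genes, 4 were higher and 22 lower, with 0 and 7 at an unadjusted p under 0.05 and a median of -0.19. Alcam was the single member called. Plxna2, a semaphorin receptor (-0.47), and its fellow guidance gene Slit2 (-0.47) had adjusted p of 0.227 and 0.279.
Postsynaptic receptors and scaffolds had the lowest median of the 31 lists, -0.27, with 2 of 14 higher, 12 lower and 3 lower at an unadjusted p under 0.05. None was called by limma. The AMPA receptor subunits Gria1 and Gria2 differed by -0.49 (adjusted p = 0.542) and -0.39 (adjusted p = 0.17), and the synaptic organizer Lrrtm2 by -0.46 (8.50 in XY, 8.95 in XX, adjusted p = 0.0906). Among 22 genes of vesicle release 15 were lower in XY (median -0.06), with Syt4 called and Sv2b next (-0.47, adjusted p = 0.215). Of 12 general neuronal markers 8 were lower (median -0.09), 2 of them at an unadjusted p under 0.05, among them Elavl4 (-0.34, adjusted p = 0.263). Markers of BNST/POA neurons went the other way, with 6 of 9 higher and a median of 0.14. At an unadjusted p under 0.05, 1 of these was higher and 0 lower. The 1 was Gal (0.37), which is also counted among the neuropeptides below. Zfhx3 had the largest fall of the markers (-0.36, adjusted p = 0.995).

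PI3K and Akt signalling genes were lower in 16 of 19 cases, with 1 higher and 5 lower at an unadjusted p under 0.05 and a median of -0.11. Pik3r3 was called. Pdpk1, the kinase that activates Akt, read 8.75, 9.27, 9.75, 9.17 and 9.08 in XY and 9.92, 9.73, 9.93, 9.65 and 9.72 in XX. XY pool 3 lay among the XX pools, and the difference was -0.58 (SE 0.21, adjusted p = 0.281). Gsk3b differed by -0.57 (adjusted p = 0.604).
In the opioid group, 3 of 8 genes could be measured. Beside Oprk1, its ligand precursor Pdyn differed by -0.17 (adjusted p = 0.841) and the nociceptin receptor Oprl1 by 0.31 (adjusted p = 0.375). Of 20 peroxisomal and ether lipid genes 14 were lower (median -0.07): the brightest Agps probe differed by -0.31 and the import factor Pex16 by 0.42 (9.18 in XY, 8.76 in XX, adjusted p = 0.0712). Of 25 replication genes 19 were higher and 6 lower (median 0.02), and Pold3, which fell, had the lowest value of the group.

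Hypothalamic neuropeptides leaned the other way, with 14 of 20 higher, 3 higher and 1 lower at an unadjusted p under 0.05, and a median of 0.08. Npy read 11.68, 12.07, 11.96, 11.63 and 11.57 in XY and 11.63, 10.96, 11.52, 11.28 and 10.92 in XX. XX pools 2 and 5 were the low ones, the groups overlapped at the margin, and the difference was 0.52 (SE 0.15, adjusted p = 0.138). Gal, the peptide galanin of preoptic neurons, read 11.65, 11.93, 11.46, 11.56 and 11.65 in XY and 11.52, 11.29, 11.26, 11.33 and 11.02 in XX, and only XY pool 3 and XX pool 1 crossed (0.37, SE 0.12, adjusted p = 0.19). Cartpt and Cck differed by 0.34 (adjusted p = 0.224) and 0.38 (adjusted p = 0.778).
Interferon-induced genes were higher in 14 of 19 cases (2 higher and 1 lower at an unadjusted p under 0.05, median 0.06). Ifitm3 stood far from the other members: B2m, the light chain of class I antigen presentation, differed by 0.35 (11.46 in XY, 11.11 in XX, adjusted p = 0.239) and the neighbour gene Ifitm2 by 0.25 (adjusted p = 0.495). BMP signalling and Id genes were higher in 11 of 18 cases (2 higher and 3 lower at an unadjusted p under 0.05, median 0.09). Beside Id1, which was called, Id3 differed by 0.27 (adjusted p = 0.635), Bmp7 by 0.27 (adjusted p = 0.347) and Smad1 by -0.26 (adjusted p = 0.373).
Steroid receptors, cofactors and enzymes, of which 16 of 30 could be measured, had a median of 0.01, with 0 higher and 1 lower at an unadjusted p under 0.05. That gene was Hsd17b7 (-0.32, adjusted p = 0.188), an enzyme of sterol synthesis that can also reduce oestrone. Esr1, Esr2 and the aromatase gene Cyp19a1 had no kept probe. Of 24 genes of DNA methylation and histone deacetylase complexes 11 were higher and 13 lower, and of 19 apoptosis genes 9 and 10. Medians were -0.01 and -0.02, and the lowest apoptosis gene was Apaf1, the apoptosome scaffold (-0.43, adjusted p = 0.175), with the protease Htra2 at 0.24 (adjusted p = 0.677). Chd4, the remodeller of the NuRD complex, differed by -0.25 (adjusted p = 0.873).
The remaining pathways showed little. Ptgds, the prostaglandin D synthase of meninges and choroid plexus, read 10.78, 12.35, 11.05, 11.47 and 10.94 in XY and 11.49, 10.02, 11.04, 10.14 and 10.10 in XX (0.76, SE 0.29, adjusted p = 0.313), with XX pools 1 and 3 inside the XY range. The other 6 prostaglandin genes differed far less, Ptgis next at 0.19. Of 14 immediate early genes 6 were higher and 8 lower, with Jun at -0.24 (adjusted p = 0.395) and Egr1 at -0.15, a value that turned positive without XX pool 5 or XY pool 1. The glutamate transporters Slc17a6 and Slc1a1 differed by -0.26 and -0.13. Of 20 ESCRT genes 13 were higher, the brighter Vps25 probe first and Stam2 at -0.23 (adjusted p = 0.229) last.

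**Figure D3:**
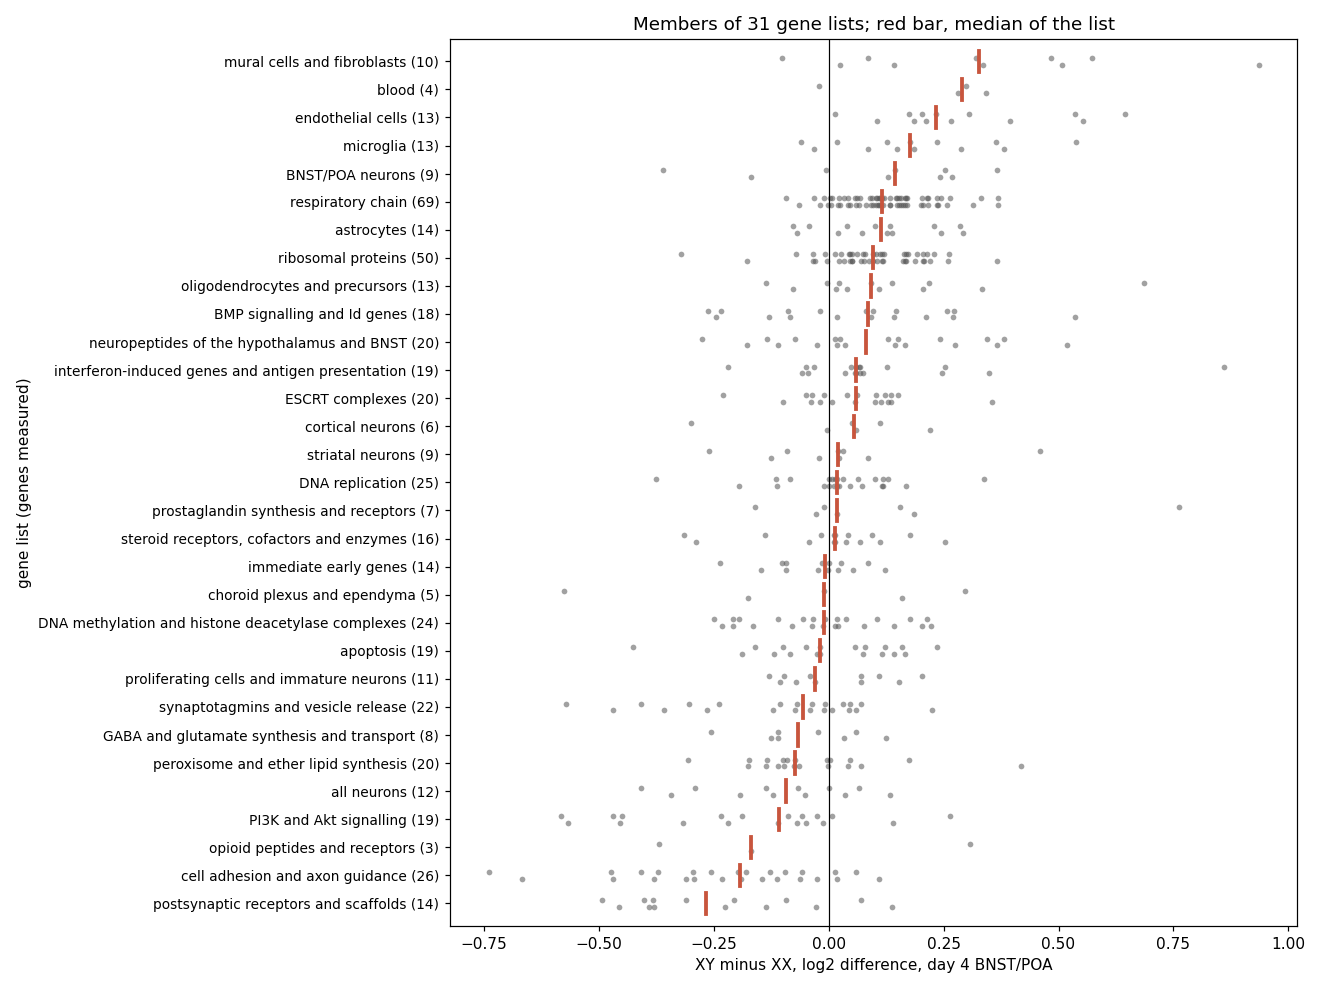
XY minus XX log2 difference (x axis) of each member of 31 gene lists (y axis, number of genes measured in brackets) in the day 4 BNST/POA; grey points are genes by their brightest probe, red bars list medians. Postsynaptic and adhesion genes have medians of -0.27 and -0.19, endothelial and mural genes of 0.23 and 0.33.

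No marker of another cell type was called by limma, and the lists are described by their counts. Endothelial genes were higher in 13 of 13 cases, 5 of them at an unadjusted p under 0.05, with a median of 0.23. Their summed intensity on the log2 scale ran from 13.18 to 13.48 in XY and from 12.66 to 13.31 in XX. Cldn5, the tight junction protein of brain vessels, read 11.24, 11.81, 11.47, 11.27 and 11.49 in XY and 11.34, 10.78, 11.25, 10.49 and 10.65 in XX (0.55, SE 0.16, adjusted p = 0.141), and the thyroid hormone transporter Slco1c1 differed by 0.64 (adjusted p = 0.144). XX pools 1 and 3 lay near the XY range and pools 2, 4 and 5 below it, the same division that Ifitm3 showed.
Mural and fibroblast genes were higher in 9 of 10 cases (3 at an unadjusted p under 0.05, median 0.33, summed level 13.19 to 14.33 in XY and 12.72 to 14.04 in XX). Dcn, the matrix protein decorin, read 9.46, 10.56, 10.004, 9.71 and 10.21 in XY and 9.46, 8.76, 10.06, 8.66 and 8.32 in XX. Again pools 1 and 3 were the high XX pools, and the difference was 0.94 (SE 0.25, adjusted p = 0.113). Microglial genes were higher in 11 of 13 cases (3 at an unadjusted p under 0.05, median 0.18, summed level 12.98 to 13.30 in XY and 12.66 to 13.09 in XX). Laptm5, a lysosomal protein of blood and microglial cells, had the largest value (0.54, adjusted p = 0.832). C1qb, a complement subunit, read 10.35 in XY and 9.97 in XX on average (0.38, SE 0.09, adjusted p = 0.0797). Blood genes were higher in 3 of 4 cases (1 at an unadjusted p under 0.05, median 0.29).
Without the 4 arrays above 0 on component 1 the endothelial genes were still higher in 13 of 13 cases (median 0.17), the mural genes in 8 of 10 (0.15) and the microglial genes in 11 of 13 (0.21), while adhesion genes were lower in 26 of 26 (-0.27). The astrocyte genes were then higher in 6 of 14 cases (median -0.01), against 11 of 14 (0.11) over all 10 arrays, and the oligodendrocyte genes in 8 of 13 (0.04), against 10 of 13 (0.09). All genes then had a median of 0.00551 and 52.1% were higher. The part of these cell types in the 14 called genes was not tested.
Choroid plexus signal varied from pool to pool. Ttr, the transthyretin of choroid plexus, read 9.71, 9.36, 13.06, 9.87 and 14.09 in XY and 14.11, 11.16, 12.36, 12.17 and 9.18 in XX, a range wider than that of any other gene named here and with no order by sex (-0.58, adjusted p = 0.993). Clic6, a choroid plexus chloride channel protein, differed by 0.30, but by -0.05 without the 4 arrays. Astrocyte genes were higher in 11 of 14 cases with none at an unadjusted p under 0.05, led by Gfap (0.29, adjusted p = 0.508), and oligodendrocyte genes in 10 of 13 with 1, led by the tight junction gene Cldn11 (0.69, adjusted p = 0.39). Striatal markers were higher in 5 of 9 cases (median 0.02): Ppp1r1b read 8.03 in XY and 7.57 in XX (adjusted p = 0.0841), far under its striatal level, while Foxp1, Drd1 and Pde10a differed by -0.26, -0.12 and -0.09.

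The direction of the difference followed the length of the gene. Genes were divided into 5 bins of equal size by the genomic length of the GRCm38 gene model, which had a value for 9244 of 9244 genes. In the bin of the shortest genes, up to 7.32 kb, 72.5% of genes were higher in XY, with 200 higher and 23 lower at an unadjusted p under 0.05. In the bin of the longest, from 65.1 kb, 30.2% were higher, with 21 higher and 223 lower. Medians were 0.06 and -0.06, and over all genes Spearman's rho between difference and length was -0.389, a description across genes of the same 10 arrays. The 7 called genes that rose measure 1.16 to 17.7 kb, and Alcam, Agps, Pik3r3 and Pold3 among those that fell measure 204, 99.2, 81.7 and 39.4 kb. Syt4, Enpp5 and Oprk1 fell although they measure 9.61, 7.77 and 17.7 kb.
Some of the lists stood in this order and others did not. The median length was 221 kb for adhesion genes and 112 kb for postsynaptic genes, against 7.13 kb for the respiratory chain, where 63 of 69 genes were higher (14 at an unadjusted p under 0.05, 0 lower, median 0.12), and 3.56 kb for ribosomal proteins, where 42 of 50 were higher (median 0.10). Endothelial and mural genes measured 36.1 and 39.3 kb in the median and had medians of 0.23 and 0.33, and the striatal markers measured 67.8 kb with a median difference of 0.02. Immediate early genes and markers of proliferating cells and immature neurons, at 3.62 and 6.51 kb, had medians of -0.01 and -0.03.
Single arrays carried this trend in differing amounts. The bin of the shortest genes minus that of the longest, each as a median deviation from the mean of the 10 arrays, was 0.16, -0.02, -0.03, 0.01 and 0.22 in XY pools 1 to 5 and -0.22, 0.06, -0.12, 0.09 and -0.14 in XX pools. The groups overlapped, and in each of them the arrays above 0 on component 1 had the high values. Within the 6 arrays on the other side the shortest and the longest genes had medians of 0.07 and -0.08, and within the 4 arrays of 0.05 and -0.05. When a smooth length trend was taken out of every array, 1 autosomal probe was called (Sphkap, -0.34, adjusted p = 0.0481) and none of the 14, whose adjusted p were then 0.0527 to 0.185 at differences of 0.316 to 0.757 in size. This setting was chosen after the data were seen. RNA quality values were not given in the labels, and their part was not tested.

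**Figure D4:**
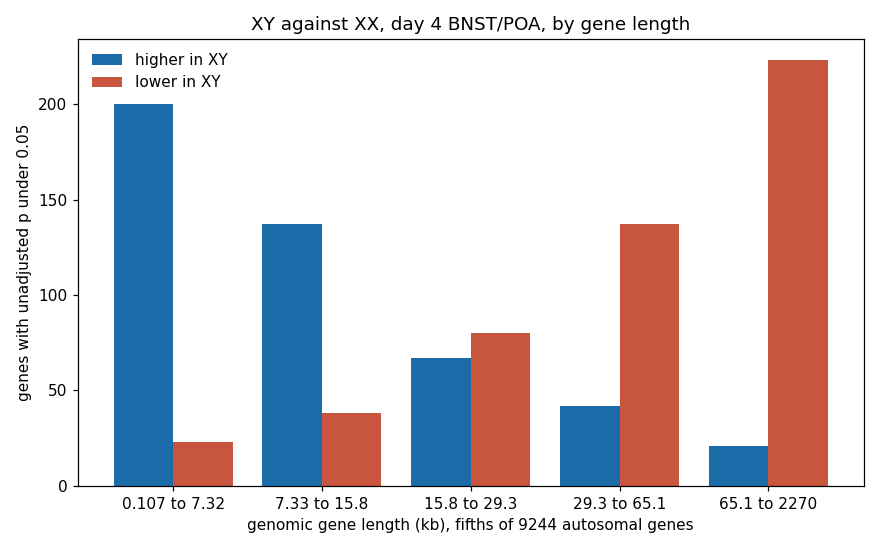
Number of autosomal genes (y axis) with an unadjusted p under 0.05 that were higher (blue) or lower (red) in XY than in XX in the day 4 BNST/POA, by bins of genomic gene length in kb (x axis). Among the shortest genes 200 genes were higher and 23 lower, and in the longest 21 were higher and 223 lower.

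XX+T females, given testosterone at birth, were measured in the same tissue at the same age, which allows the called genes to be placed beside the hormone treatment. No autosomal probe was called by limma between XX+T and XX (0 of 12505, with 464, 3.71%, at an unadjusted p under 0.05) or between XY and XX+T (0, with 307, 2.46%). These comparisons share the XX or the XY arrays with the one that chose the genes, so their values are given side by side only. Yif1b averaged 11.07 in XY, 11.04 in XX+T and 10.72 in XX. The XX+T pools lay mostly inside the XY range, and the difference of XX+T from XX was 0.32 (SE 0.08, adjusted p = 0.831). Syt4 averaged 13.03 in XY, 13.25 in XX+T and 13.61 in XX, and 0 of 5 XX+T pools lay in the XX range (XX+T minus XX, -0.36, SE 0.12, adjusted p = 1).
Ifitm3 read 9.17, 9.80, 9.33, 9.92 and 9.17 in XX+T pools 1 to 5, which spanned both other groups. Its XX+T minus XX difference was 0.49 (SE 0.18, adjusted p = 1) and its XY minus XX+T difference 0.37 (SE 0.14, adjusted p = 1). Id1 averaged 8.77 in XY, 8.44 in XX+T and 8.23 in XX, with 0 of 5 XX+T pools in the XY range and 4 in the XX range. Pold3 averaged 9.76, 10.01 and 10.13 in XY, XX+T and XX, and Enpp5 11.76, 11.99 and 12.09. Oprk1 in XX+T pools ran from 7.60 to 8.05, wider than in either other group. Against the same XX arrays, endothelial genes were higher in XX+T in 12 of 13 cases (median 0.14) and mural genes in 9 of 10 (0.06). Adhesion genes were higher in 7 of 26 cases (-0.10), postsynaptic genes in 4 of 14 (-0.09) and microglial genes in 7 of 13 (0.01). Of all autosomal genes 49.3% were higher in XX+T.

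The day 4 striatum gave the same contrast in another region on separate arrays. There 0 autosomal probes were called by limma, with 428 (3.42%) at an unadjusted p under 0.05. Of the 14 genes 13 had the sign seen in the BNST/POA, and 0 had an unadjusted p under 0.05. No share over all autosomal genes is at hand to set beside this count of signs or that of day 60. Ifitm3 averaged 9.66 in XY and 9.54 in XX striatum (0.12, SE 0.11, adjusted p = 1), and Alcam 9.65 and 9.80 (-0.15, SE 0.15, adjusted p = 1). The XX striatal level of Ifitm3 was above its level in the XX BNST/POA (8.98). Id1 differed by 0.02 (SE 0.12) and Enpp5 by 0.01 (SE 0.07) in striatum. The length pattern was present there too, with 68.4% of the shortest and 30.3% of the longest genes higher in XY. Adhesion genes were higher in XY striatum in 4 of 26 cases (median -0.11), postsynaptic genes in 2 of 14 (-0.14) and respiratory chain genes in 62 of 69 (0.09). Microglial genes were higher in 11 of 13 cases (0.06), endothelial genes in 6 of 13 (-0.06) and mural genes in 4 of 10 (-0.04). Of all autosomal genes 48.3% were higher.
The difference between regions was tested as an interaction. Limma called 0 autosomal probes (518, 4.14%, at an unadjusted p under 0.05). Syt4 differed most among the 14 by p, at -0.43 (SE 0.10), and all 14 had an adjusted p of 0.999. The sources used here do not tell whether pools of the 2 regions shared animals.

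At day 60 the BNST/POA was measured in mice with matched testosterone levels from implants. Limma called 0 autosomal probes between XY and XX, with 314 (2.51%) at an unadjusted p under 0.05. Of the 14 genes 4 kept the day 4 sign. Gatad1 averaged 9.12 in XY and 9.39 in XX (-0.27, SE 0.09, adjusted p = 1), and Rex1bd differed by -0.22 (SE 0.10, adjusted p = 1), both against their day 4 direction. Alcam averaged 9.38 in XY and 9.57 in XX (-0.18, SE 0.12, adjusted p = 1). Ifitm3 averaged 10.08 in XY and 10.18 in XX, above both day 4 groups. The length pattern ran the other way, with 35.3% of the shortest and 57.6% of the longest genes higher in XY.
Limma called 2 autosomal probes (0.016%) whose XY minus XX difference differed between day 4 and day 60, both with the larger difference at day 4. The day 60 mice had also lost their gonads and carried testosterone implants, so age and hormone state cannot be told apart in this test. Leaving out 1 of the 20 arrays at a time gave 0 calls for 15 arrays, 1 call for 2 arrays, and 7, 28 and 70 calls without XX pool 3 of day 4, XX pool 1 of day 4 and XY pool 6 of day 60. For Gatad1 the day 4 difference exceeded that of day 60 by 0.81 (SE 0.13, adjusted p = 0.0497). The other was Mtx1, a metaxin of the mitochondrial outer membrane, which averaged 10.84 in XY and 10.50 in XX at day 4 (0.35, adjusted p = 0.0594) and 10.43 in XY and 10.73 in XX at day 60 (-0.30, adjusted p = 1), a change of 0.64 (SE 0.11, adjusted p = 0.0497). Next among the 14 genes came Dpcd (0.73, SE 0.13, adjusted p = 0.0714) and Rex1bd (0.75, SE 0.14, adjusted p = 0.0714). Ifitm3 had 0.96 (SE 0.21, adjusted p = 0.112), Alcam -0.48 (SE 0.16, adjusted p = 0.294) and Oprk1 -0.26 (SE 0.10, adjusted p = 0.414). The day 4 arrays that chose these genes enter this test as well.

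**Figure D5:**
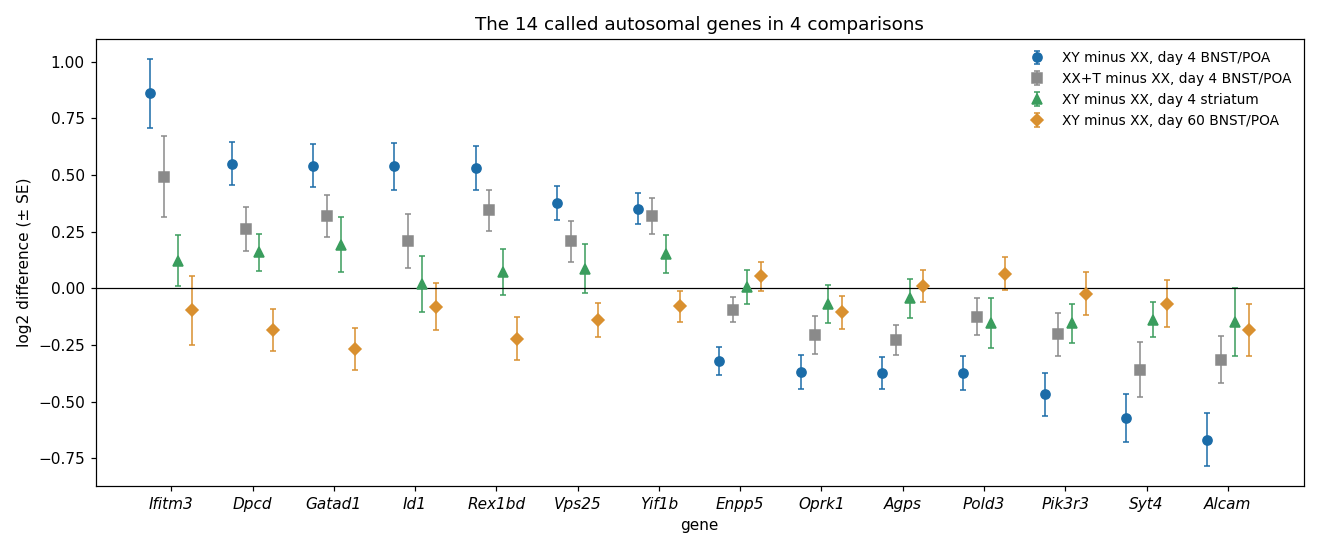
Log2 difference (y axis, error bars SE from limma) of the 14 called autosomal genes (x axis) for XY minus XX in day 4 BNST/POA, XX+T minus XX in day 4 BNST/POA, XY minus XX in day 4 striatum and XY minus XX in day 60 BNST/POA; the first 2 share the XX arrays. Day 4 BNST/POA differences run from -0.67 (Alcam) to 0.86 (Ifitm3), and those of striatum and day 60 lie between -0.27 and 0.19.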

How the data were processed

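RNA of each pool was labelled and hybridised to 1 Illumina MouseRef-8 array, read on either of 2 scanners. The authors removed outlier arrays before deposit. The paper states that each beadchip carried a sample of every experimental group. The sources used here do not give the chip of an array, so chip could not be fitted as a block. The deposited intensity values are bead averages per probe before normalization, each with a bead error, a bead number and a deposited p-value of detection. The deposited log2 values are the authors' quantile-normalized values of 13776 probes.

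Here, log2 intensities of all 57 arrays were quantile-normalized and fitted with limma 3.58.1 (R 4.3.3). The fit held XY and XX BNST/POA arrays of both ages (20 arrays), and the other comparisons likewise held their own groups at both ages. Only the region interaction used day 4 arrays alone. Adjusted p-values are Benjamini-Hochberg over all 13731 kept probes. Platform annotation named 12944 of them and a supplement of the paper named a further 13. Chromosomes came from RefSeq (GRCm38.p6). No arrays were identical (0 pairs), and 0 columns of per-array values lacked a sample.

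The members and the 31 gene lists (12 genes are in more than 1) were chosen with earlier results of these data known. Named are all called genes, the 10 largest non-overlapping differences each way, and members of the lists chosen for their values. The top 2 members of a list are not always among them. Lists not described in the text had medians between -0.07 and 0.06. SD is over pools and SE is limma's. Scripts were tested on simulated data. The number of arrays limits precision. Pool numbers did not pair the arrays: same-numbered XY and XX arrays correlated at -0.659 to 0.653 after removal of group means, and 1 of 5 pairs above 0.1. Alternatives concerned the groups in the fit, background, scaling, probe filter, array weights, block and left-out arrays.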

Additional observations from a re-analysis of the deposited data

Results flagged for a closer look

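In the called genes, 28 groups of 5 pools were screened for a pool standing far from the rest of its group, a screen that flags about 5% of groups by chance. It picked out 1: Enpp5 in XY pool 5 read 11.54, below the other XY pools at 11.78 to 11.86. Without that pool 0 autosomal probes were called between XY and XX.

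The sex difference differed between day 4 and day 60 for 2 genes by the interaction test, in which age and hormone state cannot be told apart. The day 4 difference exceeded the day 60 difference by 0.809 for Gatad1 and by 0.643 for Mtx1. Both had an adjusted p of 0.0497. The test called 0 autosomal probes without any one of 15 of the 20 arrays, 1 without either of 2, 7 without XX pool 3 of day 4, 28 without XX pool 1 of day 4 and 70 without XY pool 6 of day 60.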

How the results depend on the processing

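The 14 called genes kept the direction of their XY minus XX difference in all 25 alternatives, but some of these could not change it. Other groups in the fit, the probe filters and the left-out day 60 array leave each difference unchanged by construction. The deposited values are quantile-normalized like those used here. For the 12 genes whose groups do not overlap, leaving out arrays could not change the direction either. The number of autosomal probes called did not hold. It was 14 from the deposited log2 values and 15 with quantile normalization over the 20 arrays alone, but 0 with median centring, 4 with normexp background correction, 38 without the detection filter, 7 among probes detected on every array, and 542 with array weights. With only the 2 groups in the fit it was 1, with all 6 groups of the region 82, and with all 12 groups 83. It was 176 without a day 60 array that stood apart, XY pool 6. Leaving out each day 4 array in turn gave 0 to 91. Chosen after seeing the data, the fit without XY pools 1 and 5 and XX pools 2 and 4 gave 0 and removal of the gene length trend 1. Component 1 as a covariate, in the fit of only the 2 groups, gave 1198, against 1 for that fit without it. For the alternatives with other groups, fewer arrays or other probes, the number of arrays or probes changed by construction; for the rest the cause was not tested.

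With the pool number as a replicate block the main count was 1 and the count for the age interaction 0. The numbers did not pair the arrays, and the block moved no other count.

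With array weights, 5 probes were called for XX+T against XX, 30 for XY against XX+T, 1 for the striatum, 158 for day 60 and 523 for the age interaction. The day 60 count of 0 became 1 with all 12 groups, 1 with median centring and 6 without XY pool 6, and 0 to 6 when each array was left out. The striatal count ranged from 0 to 1 in the same way, and was 1 without XX pool 4. The age interaction, 2 in the text, gave 17 with 6 groups, 56 with 12, 0 with normexp or median centring, 11 with no detection filter, 0 among probes detected on every array, 70 without the array apart, and 0 to 70 over left-out arrays, with 0 for 15 of 20. All alternatives of the region interaction gave 0.

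Gene lists kept the direction of their medians under median centring, normexp and both quantile settings for the adhesion, postsynaptic, PI3K, neuropeptide, endothelial, mural and microglial lists. The deposited values are quantile-normalized too and gave the same medians as the main setting, so they are no separate check. Of 83 probes followed through the alternatives, not all of them named in the text, 5 values changed sign. Without XX pool 1 these were Slc1a1 (range over left-out arrays -0.252 to 0.00361) and Ttr (-1.29 to 0.00145). Egr1 (-0.42 to 0.0657) was at 0.0491 without XX pool 5 and 0.0657 without XY pool 1, and Clic6 at -0.0503 without the 4 arrays.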
